A study of Mus musculus with 4 samples.

Results

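Spermatogonial stem cell regulators are described here as 10 genes that act in self-renewal or early differentiation of male germ cells: *Gfra1*, *Ret*, *Zbtb16*, *Id4*, *Etv5*, *Lin28a*, *Sall4*, *Kit*, *Sohlh1* and *Dmrt1*. Their members were the probe sets that the platform annotation pairs with exactly 1 gene symbol, where that symbol is one of the 10. All 10 genes were found, with 22 probe sets of the 45037 on the array that are not controls. The rule used no value from these arrays. The comparison was between the testes of *Ccnyl1*-/- mice (Ccnyl1 knockout, 2 Affymetrix arrays) and those of WT mice (2 arrays). All were adults of the C57BL/6 strain at 2 months of age. The labels call the arrays of a genotype biological replicates and do not say whether each holds 1 mouse. Each array is taken here as 1 mouse. The mutants carry a KO-first allele of *Ccnyl1*, which holds a LacZ cassette, and were bred from heterozygous pairs. The labels name no treatment for either genotype. Whole testis was used, so that the signals average over all its cell types, and fewer cells of a type cannot be told apart from less RNA per cell.

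The testis is maintained by a small pool of stem cells among the undifferentiated spermatogonia, which lie on the basement membrane of the seminiferous tubule. Glial cell line-derived neurotrophic factor (GDNF) from the somatic cells binds the co-receptor encoded by *Gfra1* and the receptor tyrosine kinase encoded by *Ret*, and keeps a set of nuclear and RNA-binding factors active. Under retinoic acid these cells turn on *Kit*, become differentiating spermatogonia and then enter meiosis. Spermatogonia are a minor part of an adult testis, whereas spermatocytes and spermatids fill most of it.

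The values were MAS 5.0 signals, intensities on a linear scale. The arrays had been scaled alike, with a trimmed mean of 500 on each, and log2 signals correlated between 0.977 and 0.98 over the pairs of arrays. Log2(signal + 16) was compared with limma over the 32438 probe sets whose mean signal was at least 32, and p-values were adjusted over all of them by Benjamini-Hochberg. Log2 fold changes are on this scale, *Ccnyl1*-/- over WT, and at dim probe sets they are smaller than the change in the signal itself. The only probe set of *Ccnyl1*, the targeted gene, had signals of 921 and 969 in *Ccnyl1*-/- testes, against 2256 and 2425 in WT testes, so that both mutants were far below both WT mice (log2 fold change -1.29, adjusted p = 0.00463 from limma). Markers of meiotic and later germ cells were bright in every testis, and the tested markers of spermatocytes summed to 20057 and 20694 in *Ccnyl1*-/- testes and to 18449.5 and 18393 in WT testes. Those of round spermatids went the other way, with sums of 18285 and 18031 in *Ccnyl1*-/- and 19381 and 18853 in WT. Those of elongating spermatids summed to 80969.5 and 79131 in *Ccnyl1*-/- and to 76867 and 78366 in WT.

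None of the regulators was called different between the genotypes. Of the 22 probe sets, 19 reached the minimum signal and were tested, and 0 of these passed an adjusted p of 0.05 in limma, where 0.0123% of all tested probe sets did. At an unadjusted p under 0.05 there was 1, against 6.05% of all tested probe sets (3.47% higher and 2.59% lower), and the test that the methods name for 2 groups also gave 1. This was a probe set of *Zbtb16*, higher in *Ccnyl1*-/- testes. Both its WT signals lay under 32, so that it was tested only because of the *Ccnyl1*-/- mice. The lowest adjusted p was 0.645 for that probe set and 0.841 for the other 18, from limma. Of the 19, 11 were above and 8 below their WT level, and the median log2 fold change was 0.08, while the median over all tested probe sets was 0.02 and 54.8% of them were positive. By the brightest tested probe set of each gene, 5 genes were positive and 5 negative.

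The signals of *Ccnyl1*-/- and WT mice were free of overlap at 5 of the 19 probe sets, or 26.3%, and the share over all tested probe sets was 35.9% (20.6% higher and 15.3% lower). The 4 that were higher in both *Ccnyl1*-/- mice belong to *Zbtb16* (tested only because of these mice), *Etv5*, *Lin28a* and *Dmrt1*. The 1 that was lower is that of *Sohlh1*. At these same 5 the difference between the genotypes was larger than the gap between the mice within either genotype, and at the other 14 it was not. The precision followed the brightness. In the 10 tested probe sets with a mean signal under 100 the median standard error was 0.33 on the log2 scale, and in the 9 brighter ones it was 0.16. On the scale of signal + 16, the 95% interval at 12 of the 19 held no difference of 2-fold or more in either direction, which at dim probe sets still leaves room for a 2-fold change of the signal itself.

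**Figure D1:**
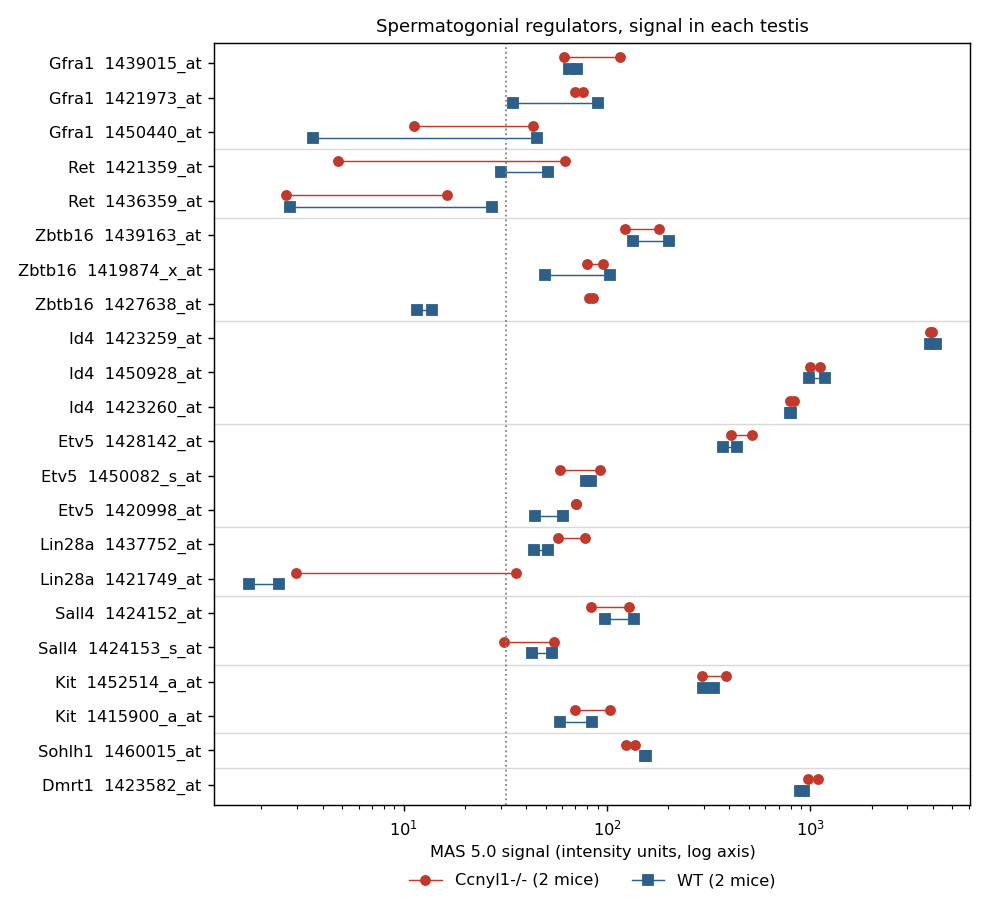
MAS 5.0 signal (intensity units, log axis) of all 22 probe sets, with circles for the 2 *Ccnyl1*-/- mice above squares for the 2 WT mice, a line joining the mice of a genotype, and a dotted line at the minimum mean signal of 32. The mice of the genotypes lie far apart only at 1427638_at of *Zbtb16*, with 81.5 and 85 in *Ccnyl1*-/- and 11.7 and 13.8 in WT, while the lines of most others overlap and those of *Id4* nearly coincide.

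The receptor for GDNF was read by 5 probe sets. *Gfra1*, which encodes the co-receptor on the surface of undifferentiated spermatogonia, had 61.5 and 116 in *Ccnyl1*-/- testes and 71.1 and 65.1 in WT testes on its brightest probe set, 1439015_at. A second, 1421973_at, gave 75.9 and 69.4 in *Ccnyl1*-/- against 34.5 and 90.3 in WT. The mice overlapped at both, with the widest gap within *Ccnyl1*-/- at the first and within WT at the second. Both had a log2 fold change of 0.27, with 95% intervals from -0.48 to 1.01 and from -0.62 to 1.17 (adjusted p = 0.922 and 0.936 from limma). The third, 1450440_at, is paired in the annotation with the same sequence as 1421973_at. It had 43.2 and 11.3 in *Ccnyl1*-/- and 3.58 and 45.2 in WT, a mean under the minimum, and was not tested. It showed 1 bright and 1 dim mouse in each genotype.

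*Ret*, which encodes the signalling chain of the receptor, was the least well measured. Its tested probe set, 1421359_at, had 62.4 and 4.78 in *Ccnyl1*-/- testes and 30.2 and 51.5 in WT testes. The WT mice thus lay between the *Ccnyl1*-/- mice. The log2 fold change was -0.47 with a 95% interval from -1.95 to 1.02 (adjusted p = 0.934 from limma), and it turned to 0.49 without *Ccnyl1*-/- replicate 2. It was -1.19 with no offset and -0.13 with an offset of 80. The other probe set, 1436359_at, had 2.64 and 16.3 against 27.1 and 2.77 in WT, under the minimum on every array. The ligand itself, *Gdnf*, was also under it, with 13.3 and 4.17 in *Ccnyl1*-/- testes and 6.64 and 7.46 in WT testes.

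*Zbtb16* encodes PLZF, a zinc finger repressor of transcription that undifferentiated spermatogonia need in order to persist, and its 3 probe sets did not give one picture. The brightest, 1439163_at, had 181 and 123 in *Ccnyl1*-/- testes and 202 and 135 in WT testes, so that 1 mouse of each genotype was high and 1 was low. Its log2 fold change was -0.13 (95% interval from -0.72 to 0.45, adjusted p = 0.956 from limma). The probe set 1419874_x_at, whose suffix marks probes that are also found in other sequences, had 95.5 and 79.9 in *Ccnyl1*-/- against 49.7 and 103 in WT and a log2 fold change of 0.23 (95% interval from -0.55 to 1, adjusted p = 0.94 from limma). Neither separated the genotypes.

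The third probe set of *Zbtb16*, 1427638_at, had 81.5 and 85 in *Ccnyl1*-/- testes, a mean of 83.3 ± 2.52, against 11.7 and 13.8 in WT testes, a mean of 12.8 ± 1.45 (SD, n = 2 each). Here the mice within a genotype lay close together and the genotypes far apart, the means by 6.53-fold. The log2 fold change was 1.79 (standard error 0.39, 95% interval from 0.89 to 2.69), and it did not pass the test (adjusted p = 0.645 from limma, and 0.271 to 0.851 over the alternatives). Both WT signals lay under 32, so this probe set reached the minimum mean signal through the *Ccnyl1*-/- mice alone. Its size depends on the offset: with no offset the log2 fold change was 2.71, and with an offset of 80 it was 0.82. Leaving out 1 mouse hardly moved it, from 1.74 to 1.84.

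Whether probe sets of a gene differ was tested on the difference between their log2 fold changes, over all 11613 pairs of a probe set with the brightest one of its gene. That of 1427638_at exceeded that of 1439163_at by 1.92 on the log2 scale (95% interval from 0.83 to 3.01), and this did not pass either (adjusted p = 0.664 from limma, and 0.265 to 0.81 over the alternatives). Of the 9 such pairs among the regulators, 0 passed, as did 0% of all pairs, and at an unadjusted p under 0.05 there was 1 among the regulators, this one, and 6.24% among all. Taking the mean of log2(signal + 16) over the 3 probe sets, *Zbtb16* had 0.63 (95% interval from 0.12 to 1.13, adjusted p = 0.823 from limma over 14782 genes). Most of this mean comes from 1427638_at (1.79), which was tested only because of the *Ccnyl1*-/- mice. The others had -0.13 and 0.23.

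**Figure D2:**
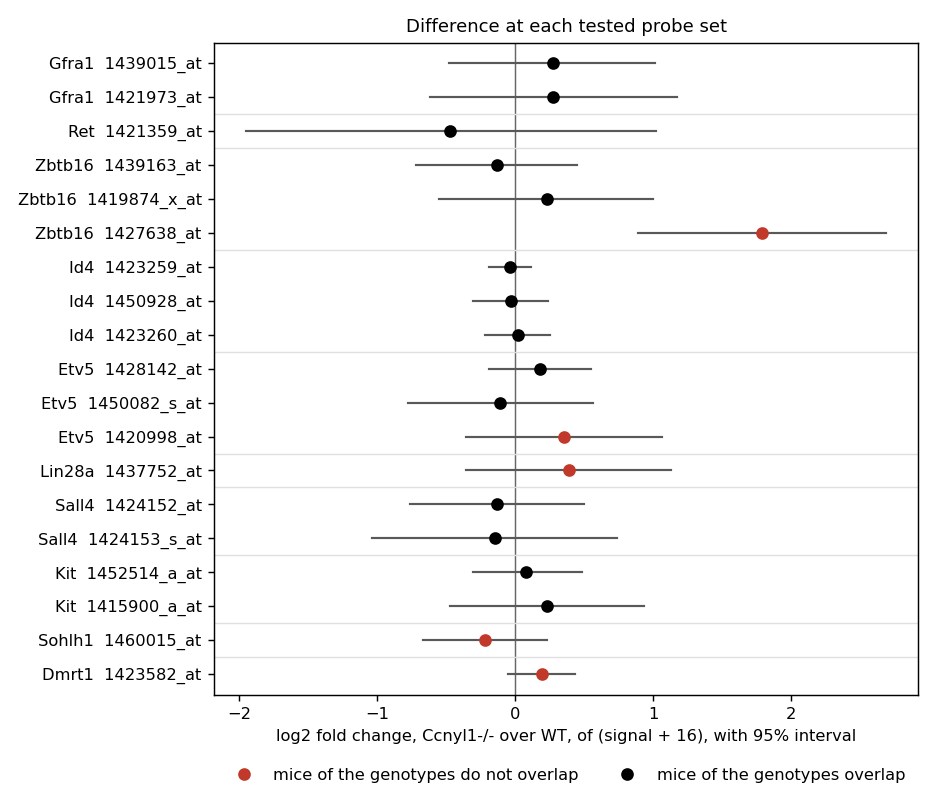
Log2 fold change of (signal + 16), *Ccnyl1*-/- over WT, at the 19 tested probe sets, with 95% intervals from limma as lines and probe sets whose mice do not overlap between the genotypes in red. The interval leaves out 0 only at 1427638_at of *Zbtb16* (0.89 to 2.69), which was tested only because of the *Ccnyl1*-/- mice. The narrowest is that of 1423259_at of *Id4* (-0.19 to 0.11).

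*Id4* encodes a helix-loop-helix protein that lacks a DNA-binding region, holds back other factors of its class and marks the stem cell fraction. Its brightest probe set, 1423259_at, which had the narrowest interval of the 19, had 3946 and 3879.8 in *Ccnyl1*-/- testes and 4152 and 3885 in WT testes. The *Ccnyl1*-/- mice lay at the lower WT mouse. The log2 fold change was -0.04, with a 95% interval from -0.19 to 0.11 (adjusted p = 0.951 from limma). 1450928_at had 1118 and 999 against 1185 and 983 in WT, and 1423260_at had 796 and 827 against 798 and 804 in WT. Their log2 fold changes were -0.03 and 0.02. All 3 probe sets are paired with the same sequence in the annotation, and they gave intervals between -0.31 and 0.25. At a mean of 3966, 1423259_at was the brightest probe set of all the regulators. The part of spermatogonia in the *Id4* signal was not tested, so these intervals describe the whole testis.

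*Etv5*, an ETS-family transcription factor that is also made by Sertoli cells and whose loss in mice depletes the stem cells, had 405 and 518 in *Ccnyl1*-/- testes and 374 and 434 in WT testes on its brightest probe set, 1428142_at. The groups overlapped, and the log2 fold change was 0.18 (95% interval from -0.19 to 0.55, adjusted p = 0.894 from limma). The probe sets 1420998_at and 1450082_s_at share 1 sequence in the annotation but had opposite signs. The first gave 70.6 and 70.8 in *Ccnyl1*-/- against 60.6 and 44.4 in WT, apart by little more than the gap within WT, a log2 fold change of 0.35 (95% interval from -0.36 to 1.06). The second gave 92.1 and 59 against 83.4 and 79 in WT, a log2 fold change of -0.11 (95% interval from -0.78 to 0.56). Neither differed from the brightest probe set by the test of the difference (adjusted p = 0.958 and 0.923 from limma).

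*Lin28a* encodes an RNA-binding protein that blocks the maturation of let-7 microRNAs and is found in undifferentiated spermatogonia. Its tested probe set, 1437752_at, had 77.8 and 57.6 in *Ccnyl1*-/- testes and 43.8 and 51.5 in WT testes. Both *Ccnyl1*-/- mice lay above both WT mice, by 1.42-fold in the means. The log2 fold change was 0.39 with a 95% interval from -0.36 to 1.13 (adjusted p = 0.89 from limma), and it ran from 0.21 to 0.56 with 1 mouse left out. The other probe set, 1421749_at, which is paired with a RefSeq transcript, had 2.95 and 35.8 in *Ccnyl1*-/- against 1.73 and 2.44 in WT. It was not tested, and its higher mean rests on *Ccnyl1*-/- replicate 2 alone.

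*Sall4*, a zinc finger factor of undifferentiated spermatogonia that is also known from embryonic stem cells, had 83.4 and 129 in *Ccnyl1*-/- testes against 136 and 97.7 in WT testes at 1424152_at. At 1424153_s_at it had 31 and 54.6 in *Ccnyl1*-/- against 42.6 and 53.6 in WT. Both probe sets overlapped between the genotypes, and they are paired with 1 sequence. Their log2 fold changes were close, -0.13 (95% interval from -0.76 to 0.5) and -0.15 (95% interval from -1.04 to 0.74). Both turned to 0.14 without *Ccnyl1*-/- replicate 1.

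Of the genes of differentiation, *Kit* encodes the receptor for KIT ligand on differentiating spermatogonia, and it is also made by Leydig and mast cells. Its brighter probe set, 1452514_a_at, had 386 and 292 in *Ccnyl1*-/- testes and 337 and 298 in WT testes. The dimmer, 1415900_a_at, had 104 and 69.3 in *Ccnyl1*-/- against 84.2 and 58.6 in WT. Replicate 1 was the higher mouse in both genotypes at both probe sets, and the genotypes overlapped. The log2 fold changes were 0.08 (95% interval from -0.31 to 0.48) and 0.23 (95% interval from -0.47 to 0.93), with adjusted p = 0.961 and 0.931 from limma. The 4 tested markers of Leydig cells, of 5 listed, summed to 8883 and 4946 in *Ccnyl1*-/- testes and to 6741 and 3708 in WT testes. Of these steroid-making genes, *Cyp17a1* and *Cyp11a1*, which carry most of the sum, were higher in replicate 1 of both genotypes, whereas *Star* (518 and 740.4 in *Ccnyl1*-/-, 507 and 336 in WT) and *Hsd3b1* (924 and 998 in *Ccnyl1*-/-, 1251 and 981 in WT) were so in WT only. *Star* also lay higher in both *Ccnyl1*-/- mice than in either WT mouse, with a log2 fold change of 0.57 that did not pass (limma, adjusted p = 0.797). Of the mast cell proteases, neither of the 2 tested was higher in replicate 1 of both genotypes: *Cpa3* had 56.8 and 59.7 in *Ccnyl1*-/- and 87.3 and 49.7 in WT, and *Tpsb2* had 71.3 and 39 in *Ccnyl1*-/- and 38.3 and 46.6 in WT. The part of these or of other cell types in the *Kit* signal was not tested.

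*Sohlh1*, which encodes a basic helix-loop-helix factor that drives spermatogonia towards differentiation, was read by 1 probe set. It had 137 and 124 in *Ccnyl1*-/- testes, against 154 and 155 in WT testes, and was the only regulator with both *Ccnyl1*-/- mice below both WT mice. The log2 fold change was -0.22 with a 95% interval from -0.67 to 0.23 (adjusted p = 0.894 from limma), and it ran from -0.28 to -0.16 with 1 mouse left out.

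*Dmrt1*, which encodes a DM-domain factor that keeps spermatogonia from entering meiosis early and that Sertoli cells also make, had 1093 and 979 in *Ccnyl1*-/- testes and 928 and 887 in WT testes on its only probe set. Both *Ccnyl1*-/- mice were above both WT mice. The means, 1036 ± 80.3 and 908 ± 28.5 (SD, n = 2 each), differed by a log2 fold change of 0.19 (standard error 0.1, 95% interval from -0.05 to 0.43), which did not pass (adjusted p = 0.841 from limma). It ran from 0.11 to 0.26 with 1 mouse left out. Of the 8 markers of Sertoli cells, 6 were positive and 2 negative on their brightest probe sets, with 0 past the test and a median of 0.09. Some were higher in both *Ccnyl1*-/- mice by about as much as *Dmrt1*: *Cldn11*, a tight junction protein, had 1051 and 1031 in *Ccnyl1*-/- testes and 922 and 928 in WT testes (0.17), and *Gata4* (0.18) and *Rhox5* (0.13), a pair of transcription factors, also lay apart. The genotypes overlapped at *Sox9* (0.19), *Wt1* (0.04), *Inha* (0.05) and the dim *Amh* (-0.82), the largest difference of the list. Overlap was missing at 4 of the 8, and at 36.1% of the brightest tested probe sets of all genes. *Clu*, a secreted chaperone whose signal makes up most of the list's sum, was lower at -0.09 on its brightest probe set and higher at 0.22 on 1418626_a_at (adjusted p = 0.832 and 0.647 from limma). It had -0.07 on 1437458_x_at and -0.01 on 1437689_x_at. The sums were 21252 and 20419.5 in *Ccnyl1*-/- testes and 20917 and 22180.2 in WT testes. The part of Sertoli cells in the *Dmrt1* signal was not tested.

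Taken by gene, 6 of the 10 regulators had more than 1 tested probe set. The probe sets pointed one way for 3 of them (*Gfra1*, *Sall4* and *Kit*) and both ways for the other 3 (*Zbtb16*, *Id4* and *Etv5*). *Ret* and *Lin28a* had 1 tested and 1 untested probe set, and *Sohlh1* and *Dmrt1* have 1 probe set each. The sign of the log2 fold change turned at 13 of the 19 tested probe sets when 1 of the 4 mice was left out. It held at 6: 1427638_at of *Zbtb16*, 1428142_at and 1420998_at of *Etv5*, and the tested probe sets of *Lin28a*, *Sohlh1* and *Dmrt1*. All of these but 1428142_at are the 5 without overlap between the genotypes. There, leaving out 1 mouse cannot turn the sign, so that a held sign adds nothing to the lack of overlap. A held sign is not a steady size: 1428142_at of *Etv5* (0.18) ran from 0.01 to 0.35 and 1420998_at (0.35) from 0.18 to 0.52.

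**Figure D3:**
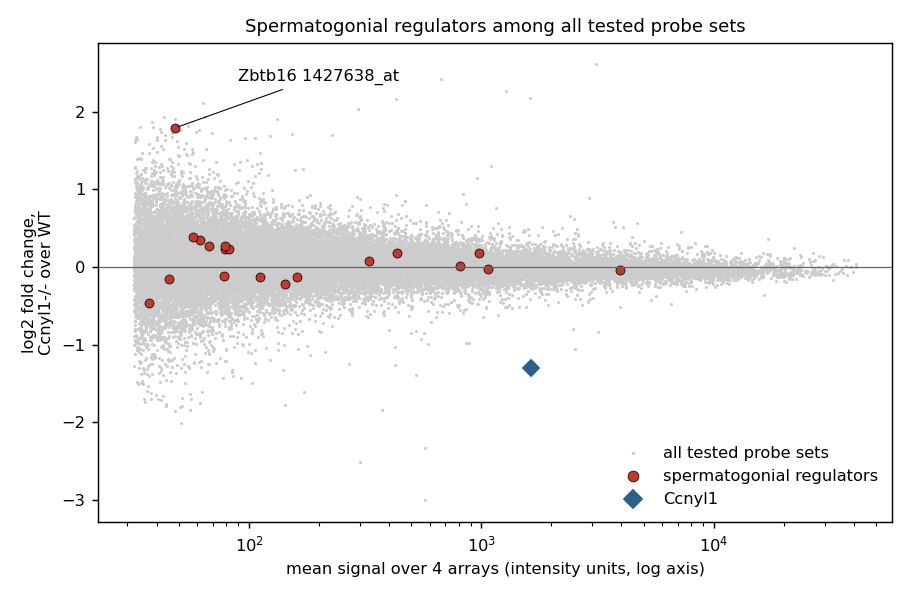
Log2 fold change, *Ccnyl1*-/- over WT, against the mean signal over the 4 arrays (log axis), with 1 grey point for each of the 32438 tested probe sets, red points for the 19 of the regulators and a diamond for *Ccnyl1*. The regulators lie within the spread of probe sets as bright as they are, except that 1427638_at of *Zbtb16*, at 1.79, lies at its upper edge among the dim ones.

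Genes that act with the regulators were read from 5 lists of ligands, receptors, further spermatogonial genes and partners. Of 96 genes listed, 75 had a tested probe set, 42 above and 33 below their WT level on the brightest one. Over their 152 tested probe sets, 0 passed the test in limma and 8 (5.26%) had an unadjusted p under 0.05, 6 higher and 2 lower, against the 6.05% of all tested probe sets. Overlap between the genotypes was missing at 32.2% of the 152, and at 35.9% of all tested probe sets. Genes are named below for the size of their difference or for such a p, which is a description and not a test.

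The niche ligands, which somatic cells supply to the spermatogonia, had the highest median, 0.18 over 10 tested genes of 13, with 8 positive and 2 negative. *Lif* (0.5) and *Vegfa* (0.48) were farthest but overlapped between the genotypes. *Nrtn*, which encodes neurturin, a ligand related to GDNF, had 450.1 and 556 in *Ccnyl1*-/- testes and 312 and 416 in WT testes. Both *Ccnyl1*-/- mice were higher, by 0.46 on the log2 scale, and this did not pass (adjusted p = 0.797 from limma). *Kitl*, the ligand of KIT, had 874 and 772 against 747 and 734 in WT and a log2 fold change of 0.15.

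The receptors for niche signals had a median of 0.07 over 9 genes, with *Igf1r* (0.42) and *Fgfr3* (0.26) farthest. *Gfra2*, the co-receptor for neurturin, had a log2 fold change of 0.12. *Ncam1*, an adhesion molecule that can bind GDNF, had -0.09 on its brightest probe set and -0.02 and 0.09 on others. A dim one, 1426864_a_at, had 24.5 and 17.1 in *Ccnyl1*-/- testes and 47.8 and 94.1 in WT testes, or -1.19 (adjusted p = 0.783 from limma). Both *Ccnyl1*-/- signals lay under 32, so that it was tested only because of the WT mice.

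The 19 tested of 30 other genes of undifferentiated spermatogonia centred on 0 by their median, 10 of them positive and 9 negative. *Magea4* (0.56) and *Utf1* (-0.35) were farthest. *Foxo1*, a forkhead factor of the stem cell pool, had 210.2 and 185 in *Ccnyl1*-/- testes and 129.6 and 117 in WT testes on the probe set 1416981_at, with a log2 fold change of 0.61 that did not pass (adjusted p = 0.746 from limma). Its brightest probe set had 0.06 and another 0.16, so that, as with *Zbtb16*, 1 of 3 tested probe sets stood apart.

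The genes of differentiating spermatogonia centred on -0.02 by the median of 19 tested genes of 20, 9 of them positive and 10 negative. Overlap between the genotypes was missing at 12 of the 19, in both directions. This is a larger share than the 36.1% of the brightest tested probe sets of all genes and the 35.9% of all tested probe sets. Whether it differs from those shares was not tested. *Rarg*, the retinoic acid receptor of spermatogonia, had 182 and 115 in *Ccnyl1*-/- testes and 101 and 27.4 in WT testes, a log2 fold change of 1.18 that leans on the dim WT mouse (adjusted p = 0.797 from limma). Its other tested probe set, 1419416_a_at, had 85.6 and 6.42 in *Ccnyl1*-/- and 38.5 and 10.6 in WT, where the mice overlapped, and 0.33. *Ccnd3*, a D-type cyclin, had 1141 and 1022 in *Ccnyl1*-/- against 1367 and 1239.8 in WT, lower in both mutants, with a log2 fold change of -0.27 that did not pass (limma, adjusted p = 0.797), while it had 0.19 on its other tested probe set, 1438805_at, where the mice overlapped. *Sycp3*, of the meiotic chromosome axis, had 0.17 and *Meioc*, a regulator of meiotic entry, 0.2. Both had higher signals in both *Ccnyl1*-/- mice and neither passed the test (adjusted p = 0.78 and 0.797 from limma). The same probe set of *Sycp3* is also among the spermatocyte markers summed above. The part of spermatocytes and later germ cells in the signals of this list was not tested. *Stra8*, the gate to meiosis, had 0.02.

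The 20 tested partners and targets of the regulators centred on 0.02 by their median, 10 of them positive and 10 negative. *Spry4* (0.42) and *Egr3* (-0.25) were farthest. *Tcf12*, an E protein of the class that ID proteins bind, had 5 tested probe sets that went both ways. The brightest had 0.11 and 1439209_at 0.17, while 1439619_at had -0.12 and the second brightest, 1421908_a_at, had -0.31, with 299 and 322 in *Ccnyl1*-/- testes and 385 and 395 in WT testes (adjusted p = 0.82 from limma). The dim 1446294_at had 55 and 49.5 in *Ccnyl1*-/- testes and 10.4 and 14.2 in WT testes. It was tested only because of the *Ccnyl1*-/- mice, since both WT signals lay under the minimum. Its log2 fold change was 1.27 (adjusted p = 0.783 from limma), and it was also 1.27 with no minimum signal. *Tut4*, the uridylyl transferase that LIN28A recruits to let-7 precursors, had 0.17 (adjusted p = 0.84 from limma).

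**Figure D4:**
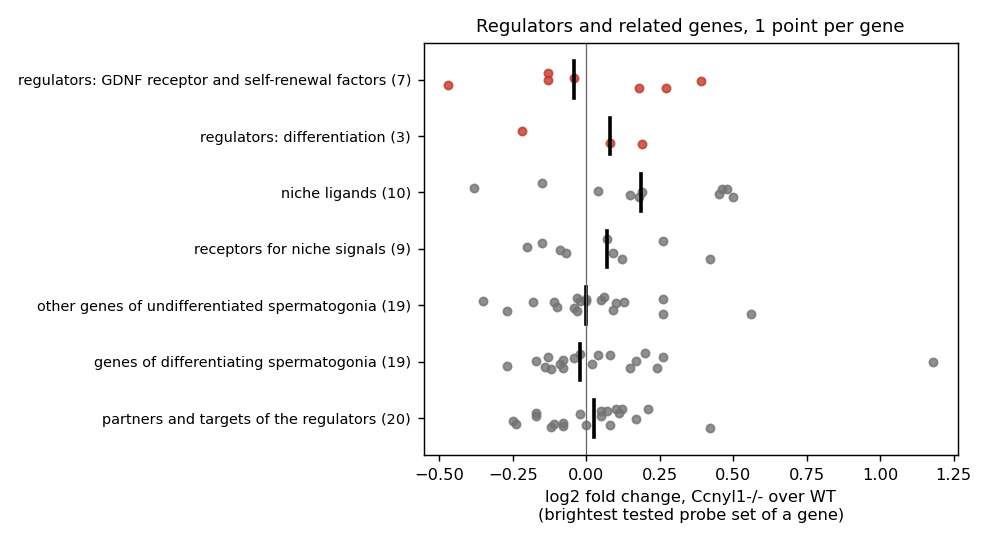
Log2 fold change, *Ccnyl1*-/- over WT, on the brightest tested probe set of each gene, with 1 point per gene, the regulators in red, other genes in grey, a black bar for the median of each list and the number of genes in brackets. The medians lie between -0.04 and 0.18, and the points of most lists fall on both sides of 0.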

How the data were processed

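Testis RNA of 2 *Ccnyl1*-/- and 2 WT mice was read on 1 Affymetrix array each. The intensities deposited by the authors are signals of MAS 5.0, run with default settings and global scaling: each array is background-subtracted, mismatch-corrected, summarised per probe set and multiplied by 1 factor. The methods state a scaling target of 100, whereas the trimmed mean of the deposited arrays is 500. Detection calls were not used here, and signals near 0 spread widely on the log scale.

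No further scaling was applied. Genotype alone was fitted to log2(signal + 16) by limma 3.58.1 under R 4.3.3, where eBayes let the prior variance follow the average log2 signal. Differences between probe sets of a gene were fitted in the same way, with the prior variance following the dimmer one. A probe set was tested with a mean signal of at least 32, a threshold of 0.05 applied after Benjamini-Hochberg adjustment, and intervals are 95% intervals. Both fits were tested on simulated data. The t-test of the methods was run on the same values.

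The genes and lists were chosen with earlier results of these data known. The genes named are all the regulators, *Ccnyl1*, the 2 genes of each list with the largest difference, and those with an unadjusted p under 0.05 and no overlap between genotypes. *Gdnf*, *Kitl*, *Gfra2*, *Stra8*, *Tut4* and most of the cell type markers were named after their values were seen. Alternatives were the offset, the minimum signal, the scaling, the variance model, the test, the replicate block, the probe sets used and leaving out each mouse. Replicates are separate mice per the labels. The number of arrays limits the precision.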

Additional observations from a re-analysis of the deposited data

How the results depend on the processing

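In every alternative that kept all mice, 0 regulator probe sets passed the test and 0 differed from the brightest probe set of their gene. The second count could only be 0, because 0 pairs of any gene passed in those runs. The first could only be 0 where 0 probe sets passed over all genes. With a minimum signal of 100, 0 of the regulators had an unadjusted p under 0.05 and their median log2 fold change was -0.03, since only the 9 brighter probe sets were tested, and with arrays scaled to one median it was 0.01. The latter scaling also took the median over all tested probe sets from 0.02 to -0.05. Over all genes, 4 probe sets passed in the main analysis, 7 with arrays scaled to one median, 14 with the replicate number as a block, and 0 without the variance trend or with the t-test of the methods (1906 and 1900 at an unadjusted p under 0.05). Over all tested probe sets, the gap between replicates 1 and 2 in one genotype correlated with that in the other at 0.014. Whether same-numbered mice share more than a number was not tested. The block moved none of the regulators past the test. With 1 mouse left out, 11 to 57 probe sets passed over all genes (57 without WT replicate 1, 47 without WT replicate 2, 11 without *Ccnyl1*-/- replicate 1 and 14 without *Ccnyl1*-/- replicate 2), 0 to 4 pairs of probe sets of one gene differed, 0 of the regulators passed in either test, and their median ran from 0.02 to 0.15.

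Outside of leaving out a mouse, 2 of 208 values of single probe sets changed sign: *Id4* 1423260_at had -0.06 with arrays scaled to one median, and *Zbtb16*, at -0.13 on its brightest probe set, had 0.63 as the mean of its probe sets. Sizes moved more often: of the 19 probe sets, 8 moved by over 1.5 times in the same direction with arrays scaled to one median (among them *Dmrt1* to 0.11, *Etv5* 1428142_at to 0.1, *Kit* 1452514_a_at to 0.01 and *Id4* 1423259_at to -0.12), 3 with quantile normalization, 2 with no offset and 11 with an offset of 80. With 1 mouse left out, 17 of 79 changed sign. *Etv5* 1450082_s_at ran from -0.37 to 0.15, *Gfra1* 1421973_at from -0.26 to 0.81 and 1439015_at from -0.12 to 0.65. *Id4* 1423259_at ran from -0.09 to 0.01, 1423260_at from -0.01 to 0.04 and 1450928_at from -0.16 to 0.1. *Kit* 1415900_a_at ran from -0.02 to 0.48 and 1452514_a_at from -0.11 to 0.27, and *Ret* 1421359_at from -0.74 to 0.49. The range of *Ret* leaves out the case without *Ccnyl1*-/- replicate 1, where its mean signal fell under the minimum and it was not tested. *Sall4* 1424152_at ran from -0.4 to 0.14 and 1424153_s_at from -0.44 to 0.14, and *Zbtb16* 1419874_x_at from -0.2 to 0.66 and 1439163_at from -0.39 to 0.13. These signs turned without WT replicate 1 (*Gfra1* 1421973_at, *Id4* 1423259_at and 1450928_at, *Sall4* 1424152_at, *Zbtb16* 1419874_x_at and 1439163_at), without WT replicate 2 (*Kit* 1452514_a_at), without *Ccnyl1*-/- replicate 1 (both probe sets of *Kit* and of *Sall4*) or without *Ccnyl1*-/- replicate 2 (*Etv5* 1450082_s_at, *Gfra1* 1439015_at, *Id4* 1423260_at and 1450928_at, *Ret* 1421359_at, *Zbtb16* 1439163_at). The causes of these shifts were not tested. *Ret* had no value as a mean of its probe sets, which lies under the minimum signal. Where 1 mouse is left in a genotype, it is assumed to vary like the others. Low signals limit *Gfra1*, *Ret*, *Lin28a* and *Sall4* most.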
